A study of Mus musculus with 62 samples.

Results

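The genes described here are 40 enzymes and transporters of glycolysis, glycogen turnover and lactate handling in mouse skeletal muscle. They were chosen by name from the pathway, though with earlier results of these data known. They stand among 29239 gene symbols in the table of chow-fed mice and 21886 in that of hypoxia and diet. The series holds 62 RNA-seq libraries around ChREBP, the carbohydrate-sensing transcription factor encoded by Mlxipl. Gastrocnemius (GC) and soleus (SOL) came from chow-fed mice, in which F/F carried ChREBP-flox alleles without Cre and ChMKO carried ChREBP-flox;Mck-cre, with n = 5 for each genotype and muscle. Further GC came from F/F and ChMKO mice, n = 4 for each group, left untreated (Norm), kept for 2 weeks at a simulated altitude of about 5500 m (Hypo), or given a diet high in fructose over 3 months (HFrD). GC was also taken from C57BL6/J mice after injection of AAV-MLXIPL or AAV-CON, n = 5. Finally, C2C12 cells with ChREBP overexpression or a vector control were harvested on day 7 of differentiation, n = 4.

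F/F mice were littermates of the ChMKO mice, and both carried the floxed alleles, in which loxP sites flank exon 8. Mck-cre is driven by the muscle creatine kinase promoter, so Cre acts in muscle fibers and heart and not in the other cells of a muscle. Mice were male and 8 to 10 weeks old unless the study states otherwise. The AAV carried mouse ChREBP under the CMV promoter, which is not restricted to fibers. The Norm libraries are the control of both the hypoxia and the diet groups. C2C12 is a mouse myoblast line. The study's methods describe the libraries of each group as independent biological replicates.

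Glycolysis splits glucose, or glucose phosphate released from glycogen, into pyruvate, and many of its steps are run by isoenzymes that differ between tissues. Fast-twitch fibers break down glycogen quickly and export lactate, whereas slow-twitch fibers take lactate up and oxidize it. Lactate dehydrogenase shows this division: Ldha encodes the subunit that favors making lactate and Ldhb the subunit that favors using it. The monocarboxylate carriers divide likewise, Slc16a3 (MCT4) serving export and Slc16a1 (MCT1) serving uptake. GC is mainly a fast-twitch muscle in mice, and SOL holds many slow-twitch fibers.

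ChREBP binds E-box sequences such as CACGTG, usually as a spaced pair named the carbohydrate response element, and the core of the hypoxia response element is ACGTG, which lies within CACGTG. Promoters are shown for Ldha, Slc16a1 and Pfkfb3, which hold CACGTG and differ clearly between the muscles. The same holds for Fbp2 and Pfkm, whose promoters are not shown. They run from 250 bases before to 50 bases after the transcript start, come from RefSeq on GRCm38.p6, and read 5′ to 3′ on the strand of the gene with CACGTG in capitals. The Ldha window is chr7:46845554-46845853 (plus strand), the Slc16a1 window chr3:104638414-104638713 (plus strand) and the Pfkfb3 window chr2:11502041-11502340 (minus strand).
Ldha promoter: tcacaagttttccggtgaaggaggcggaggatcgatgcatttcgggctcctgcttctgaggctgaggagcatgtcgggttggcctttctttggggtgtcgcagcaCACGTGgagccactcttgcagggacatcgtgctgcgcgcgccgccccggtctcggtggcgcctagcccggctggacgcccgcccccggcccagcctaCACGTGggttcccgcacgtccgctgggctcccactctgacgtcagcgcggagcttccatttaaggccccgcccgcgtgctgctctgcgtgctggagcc
Slc16a1 promoter: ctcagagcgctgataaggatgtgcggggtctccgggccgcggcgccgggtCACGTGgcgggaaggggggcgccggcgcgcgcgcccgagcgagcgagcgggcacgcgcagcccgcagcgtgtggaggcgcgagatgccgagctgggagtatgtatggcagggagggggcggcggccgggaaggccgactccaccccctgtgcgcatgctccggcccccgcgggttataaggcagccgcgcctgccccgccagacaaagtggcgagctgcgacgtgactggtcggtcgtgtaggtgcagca
Pfkfb3 promoter: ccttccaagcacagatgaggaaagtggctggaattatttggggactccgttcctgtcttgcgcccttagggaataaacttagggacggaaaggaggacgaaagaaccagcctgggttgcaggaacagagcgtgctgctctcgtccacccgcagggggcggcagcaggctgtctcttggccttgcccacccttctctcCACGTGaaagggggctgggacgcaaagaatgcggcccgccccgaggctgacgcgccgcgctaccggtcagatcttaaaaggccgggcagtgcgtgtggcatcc

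CACGTG begins at -145 and -48 in Ldha, at -200 in Slc16a1 and at -53 in Pfkfb3, counted with the transcript start base as 0. A promoter was matched for 39 of the 40 genes, and 7 of these held CACGTG in at least 1 window (Fbp2, Gyg, Ldha, Pfkfb2, Pfkfb3, Pfkm and Slc16a1), beside 8.09% of all 27025 genes and 7.15% of all 32851 promoters of the same length. ACGTG, searched on both strands and overlapping CACGTG, was present for 21 of the 39, beside 21.8% of all genes. The carbohydrate response element, as a pair of CACGTG boxes 5 bases apart, was found in 0 promoters of any gene, so that its absence from the members tells nothing. The relaxed form CACNNGNNNNNCACNNG, searched on both strands, was found for 1 of the 39, Gpd2, beside 1.23% of all genes. A match describes letters and is no binding site.

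Levels are given in FPKM, fragments scaled to gene length and library size. Log2 fold changes are differences of mean log2(FPKM + 1), which understate changes of low genes, and a gene was called at a Benjamini-Hochberg adjusted p under 0.05 from limma over all genes tested. Genes needed a mean of at least 0.5 FPKM in the libraries compared, which 37 of the 40 reached between the muscles. Aldoc, Eno2 and Pklr did not, with means of 0.119, 0.186 and 0.0167 FPKM in GC of F/F mice. The 40 genes made up 2.70 to 3.98% of all FPKM in GC and 1.26 to 1.67% in SOL of F/F mice on chow. In GC of the AAV-CON group they made up 8.05 to 9.24%, so these shares differ between the tables. Gapdh was 215 to 355 FPKM in GC of F/F mice on chow and 5095 to 5849 in AAV-CON. In GC of F/F mice under Norm and Hypo it was 126 to 396. Why its level differs between the tables was not tested. Mlxipl, read over the whole gene, was 24.9 ± 4.10 FPKM in GC of F/F and 15.7 ± 2.53 in GC of knockouts (adjusted p = 0.415), and 53.4 ± 7.51 against 38.4 ± 7.13 in SOL (adjusted p = 0.384). In Norm, Hypo and HFrD it was lower in ChMKO by 1.16, 1.27 and 0.92 on the log2 scale (adjusted p = 0.00655, 0.00297 and 0.00306). Mlxipl was 83.5 ± 19.1 FPKM with AAV-MLXIPL against 11.3 ± 0.749, and 13.4 ± 0.409 with overexpression in C2C12 cells, where the controls held at most 0.020.

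The lactate genes divided cleanly between the muscles. Ldhb was 67.4, 209, 40.6, 97.2 and 56.5 FPKM in the 5 GC libraries of F/F mice and 689, 1034, 825, 755 and 843 in the 5 SOL libraries. Every SOL library lay above every GC library, with a log2 fold change of SOL against GC of 3.35 (SE 0.35, adjusted p = 3.02e-05). Ldha went the other way, at 1545, 1337, 1868, 1391 and 1779 FPKM in GC and 665, 514, 527, 476 and 457 in SOL, also without overlap (-1.58, SE 0.14, adjusted p = 9.08e-06). Ldhb thus made up 61% ± 6.13 of the summed Ldha and Ldhb level in SOL and 5.89% ± 4.58 in GC (SD, n = 5).

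The lactate carriers divided in the same way. Slc16a3, the exporter, was 136, 99.2, 160.1, 116 and 159.5 FPKM in GC and 35.5, 13.6, 23.1, 21.1 and 14.5 in SOL of F/F mice (log2 fold change -2.64, SE 0.24). Slc16a1, the carrier suited to uptake, was 10.1, 11.8, 5.11, 10.2 and 7.89 FPKM in GC and 30.3, 26.4, 24.9, 22.1 and 14.8 in SOL (1.31, SE 0.22). Neither gene overlapped between the muscles, as held for 29 of 37 members and 35.9% of all genes. Slc16a1 was 53.1% ± 7.59 of the summed pair in SOL and 6.68% ± 2.92 in GC. In bulk muscle, fewer cells of a type and less RNA per cell cannot be told apart.

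**Figure D1:**
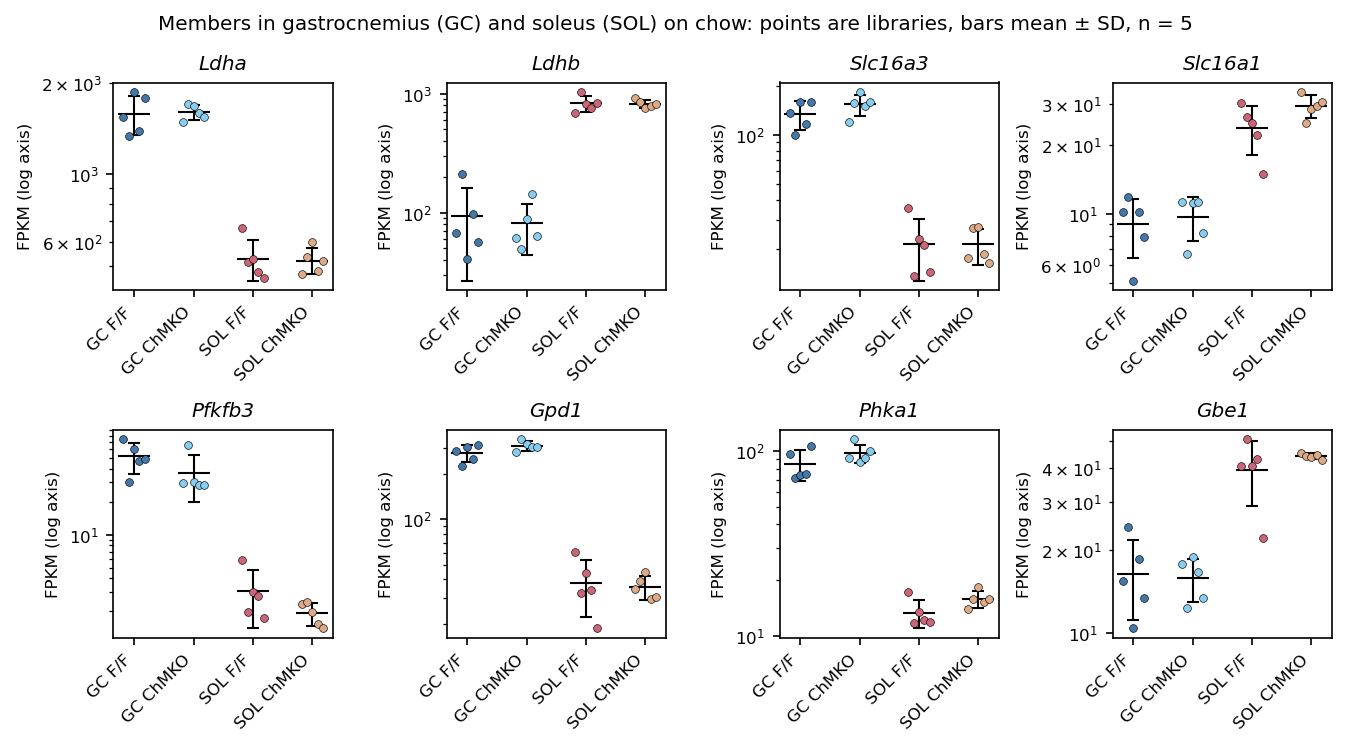
FPKM (log axis) of 8 members in GC and SOL by genotype on chow, 1 point for each library, with mean and SD (n = 5). Ldhb, Slc16a1 and Gbe1 are higher in SOL and Ldha, Slc16a3, Pfkfb3, Gpd1 and Phka1 higher in GC, in both genotypes.

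Of the 37 members tested between the muscles in F/F mice, 33 were called, 11 higher and 22 lower in SOL. Of all genes tested, 50.4% were called, 37.9% higher and 12.6% lower, so that the members' calls lay mostly on the side that held fewer of all calls. After the rescaling of libraries described below the sides were even, at 22% higher and 22.1% lower of all genes. In ChMKO mice 35 of 37 were called, 13 higher and 22 lower, beside 57.9% of all genes, 41% higher and 17% lower. By the study's criterion, a log2 fold change of at least 1 in size with an unadjusted p under 0.05, 23 members passed in F/F and 24 in ChMKO mice, beside 8% and 7.82% of all genes. The median log2 fold change over the members was -1.09 in F/F and -1.20 in ChMKO mice, beside 0.18 and 0.15 over all genes. All 6 slow-twitch markers were higher in SOL of F/F mice, with a mean log2(FPKM + 1) of 9.62 to 10.34 against 1.38 to 4.88 in GC. Markers of endothelium (5 of 5, 4.49 to 5.31 against 3.03 to 3.96) and of red blood cells (5 of 5, 4.19 to 5.16 against 2.92 to 3.80) were higher in SOL as well, and their part in the members' differences was not tested.

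**Figure D2:**
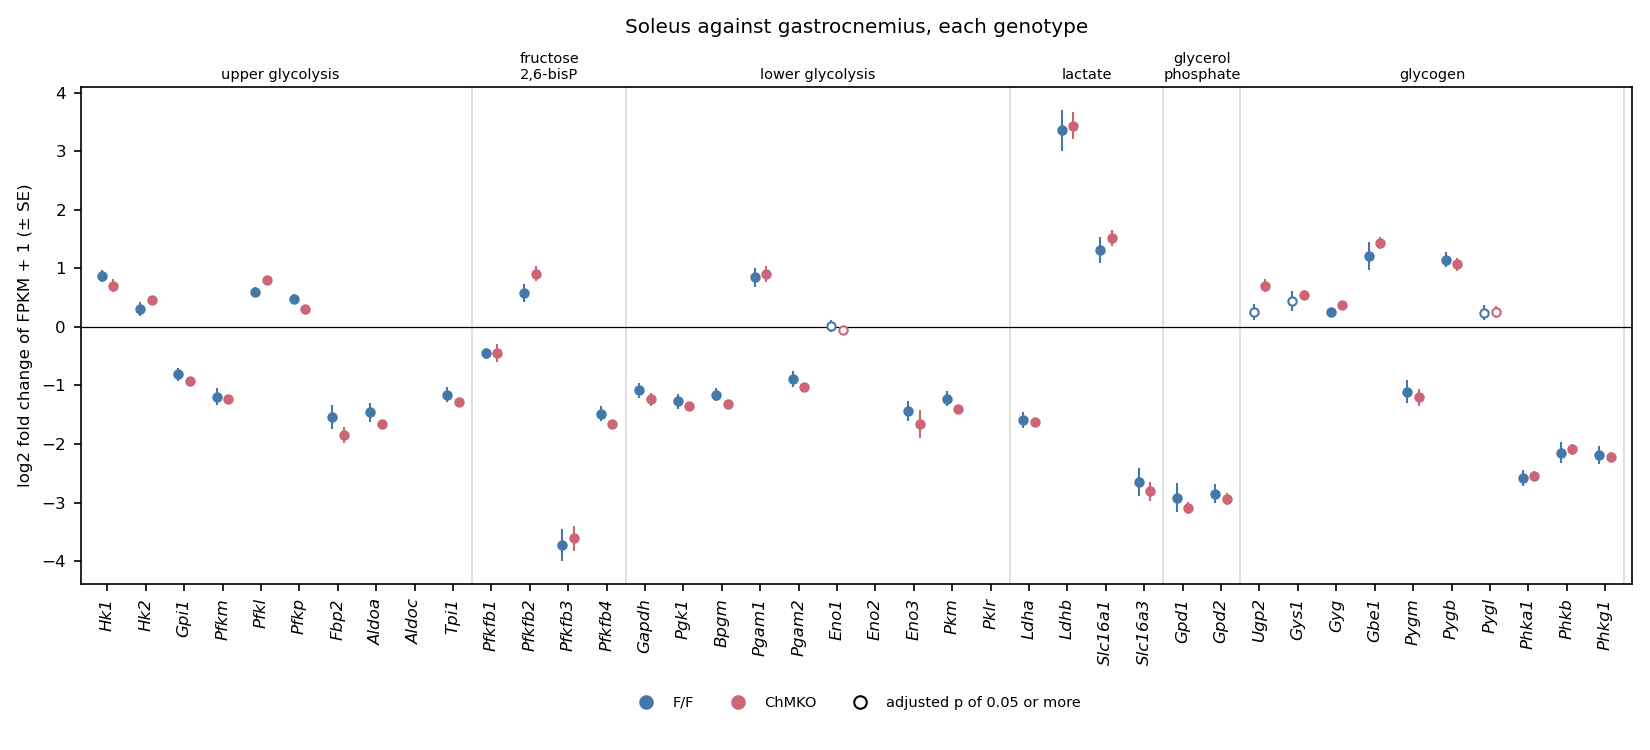
Log2 fold change of SOL against GC (difference of mean log2(FPKM + 1), bars SE) for the 37 members tested, ordered by role, in F/F (blue) and ChMKO (red) mice, with open points where the adjusted p was 0.05 or more. Values run from -3.73 for Pfkfb3 to 3.44 for Ldhb and lie close together in the genotypes.

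Upper glycolysis, from glucose to the triose phosphates, held 4 members higher and 5 lower in SOL among the 9 tested in F/F mice, beside 37.9% and 12.6% of all genes. Pfkm, the muscle phosphofructokinase, was 589 ± 114 FPKM in SOL and 1329 ± 101 in GC (-1.19), and Aldoa, the muscle aldolase, 1951 against 5404 (-1.46, SE 0.16). Fbp2, the muscle fructose bisphosphatase of the reverse step, fell by 1.53, Tpi1 by 1.16 and Gpi1 by 0.81. Isoforms better known from other tissues rose from low levels. Hk1, the hexokinase typical of brain, was 4.26 ± 0.689 in SOL and 1.88 ± 0.310 in GC (0.86), Pfkl, the liver form, 4.38 ± 0.512 and 2.55 ± 0.177 (0.60), and Pfkp, the platelet form, rose by 0.47. Pfkl still supplied only 0.772% ± 0.237 of the phosphofructokinase level in SOL, beside 0.192% ± 0.0218 in GC. Hk2, the main muscle hexokinase, was called higher in SOL of F/F mice (0.31, adjusted p = 0.0427), but not after rescaling of the libraries (adjusted p = 0.558) or without a filter (0.0687).

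The Pfkfb enzymes make and break the sugar phosphate that activates phosphofructokinase, and their mix differed between the muscles. Pfkfb3, an isoform with high synthesis activity, was 74, 30.3, 60.1, 47.1 and 49.1 FPKM in GC and 5.92, 1.98, 2.99, 2.79 and 1.73 in SOL of F/F mice. The groups lay far apart, and the fold change of -3.73 (SE 0.27, adjusted p = 3.68e-06) was the lowest among the members tested. Pfkfb4 fell by 1.49 and Pfkfb1 by 0.45, while Pfkfb2, known from heart, rose from 1.53 ± 0.538 to 2.74 ± 0.550 FPKM (0.57). Pfkfb3 supplied 64.1% ± 7.71 of the summed Pfkfb level in GC and 14.7% ± 6.31 in SOL, where Pfkfb1 supplied 57.6% ± 5.77.

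Lower glycolysis, from the triose phosphates to pyruvate, held 6 lower and 1 higher among 8 tested in F/F mice, beside 12.6% and 37.9% of all genes. Pkm, the pyruvate kinase of muscle, was 644 ± 76.9 FPKM in SOL and 1515 ± 211 in GC (-1.23), and Gapdh, Pgk1 and Bpgm fell by 1.09, 1.27 and 1.16. Pgam2, the muscle phosphoglycerate mutase, was 1135 ± 124 against 2119 ± 356 (-0.89), while Pgam1, the brain form, rose from 5.47 ± 1.27 to 10.6 ± 2.32 (0.85). Pgam1 remained 0.939% ± 0.224 of the mutase level in SOL. Eno3, the muscle enolase, fell by 1.44, and Eno1 was 35.9 ± 4.85 against 35.6 ± 3.10 (0.01, adjusted p = 0.953). The chow table holds a second entry on a scaffold apart from the chromosome sequence for Eno1, Eno3, Hk2 and Pygm. Entries of a symbol were summed, so that the levels of these genes are uncertain. The scaffold entry of Eno3 alone gave -1.79 and its chromosome entry -0.59 (adjusted p = 0.0619), which was not called, so that the call of the sum rests on the scaffold entry.

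Both enzymes of the glycerol phosphate shuttle, which carries cytosolic reducing equivalents to mitochondria, were low in SOL. Gpd1, the cytosolic enzyme, was 37.9 ± 15.5 FPKM in SOL and 275 ± 35.4 in GC (-2.92, SE 0.25). Gpd2, the mitochondrial enzyme, was 4.67 ± 1.44 against 38.9 ± 4.8 (-2.85, SE 0.16). Gpd1 made up 88.5% of their sum in SOL and 87.6% in GC.

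Of 10 glycogen genes tested in F/F mice, 3 were higher and 4 lower in SOL, beside 37.9% and 12.6% of all genes. The phosphorylase kinase subunits, which switch on glycogen breakdown, fell in SOL of F/F mice: Phka1 was 13.3 ± 2.29 FPKM against 84.8 ± 16 in GC (-2.58, SE 0.14), and Phkg1 and Phkb fell by 2.19 and 2.15. Pygm, the muscle glycogen phosphorylase, fell by 1.11. Its scaffold entry alone gave -2.16 and its chromosome entry -0.17 (adjusted p = 0.672), so that the call rests on the scaffold entry. Gbe1, the branching enzyme, rose from 16.4 ± 5.32 to 39.4 ± 10.5 (1.22) and Pygb, the brain phosphorylase, from 1.70 ± 0.182 to 5.06 ± 1.14 (1.15). Gyg, the primer glycogenin, rose by 0.25, a call lost after rescaling. Gys1, the muscle glycogen synthase, was 195 ± 44.5 against 140.2 ± 15.3 (0.44, adjusted p = 0.0520) in F/F mice, where 1 SOL library was low, and 219 ± 14.4 against 151 ± 17.6 (0.54, adjusted p = 1.73e-04) in ChMKO mice. Ugp2, which makes the glucose donor of the synthase, gave 0.25 (adjusted p = 0.157) and 0.70 (adjusted p = 2.38e-04).

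In ChMKO mice the same 8 members had the largest changes: Pfkfb3 (-3.61), Ldhb (3.44), Gpd1 (-3.10), Gpd2 (-2.94), Slc16a3 (-2.81), Phka1 (-2.54), Phkg1 (-2.23) and Phkb (-2.09). Ldhb made up 61.3% ± 3.66 of the pair in SOL and 4.78% ± 2.05 in GC, and Slc16a1 58.2% ± 8.25 and 6.07% ± 1.78. Among the core genes, the fold change was 0.46 for Hk2, -1.23 for Pfkm, -1.65 for Aldoa, -1.03 for Pgam2, -1.67 for Eno3, -1.40 for Pkm, -1.62 for Ldha, -1.20 for Pygm and 1.52 for Slc16a1. Eno3 and Pygm rest there on their scaffold entries (-2.18 and -2.36), since their chromosome entries gave -0.28 and 0.05 (adjusted p = 0.174 and 0.886). Other members past the study's criterion were Fbp2 (-1.84), Tpi1 (-1.28), Gapdh (-1.24), Pgk1 (-1.36), Pfkfb4 (-1.66), Bpgm (-1.32), Gbe1 (1.44) and Pygb (1.07). Pgam2 passed it in ChMKO and not in F/F mice, a difference that was not called between genotypes.

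Of 34 further genes of the pathway, 25 were tested in F/F mice, and 4 were higher and 11 lower in SOL, beside 37.9% and 12.6% of all genes, with 5 and 14 in ChMKO mice, beside 41% and 17%. Tigar, a fructose bisphosphatase, fell by 1.27 in F/F mice. Rescaling each library by its median of ratios moved the median of all genes from 0.18 to 0.01 in F/F mice and the share of higher calls from 75.1 to 49.9%, with 9 members then higher and 22 lower, beside 22% and 22.1% of all genes. In ChMKO mice that share went from 70.7 to 49.8%, with 13 higher and 23 lower, beside 26.9% and 27.1%. No called member changed sign in either. Without the SOL library of F/F number 71, in which Gys1 was low, 35 were called, beside 51.4% of all genes.

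Genotype was then compared within each muscle on chow. In GC 0 of 37 members were called by limma, beside 0.0236% of all genes, and 0 had an unadjusted p under 0.05, beside 4.62%. In SOL 0 were called, beside 0.0225%, and 2 had an unadjusted p under 0.05, beside 9.77%: Ugp2 at 232 ± 36.9 FPKM in ChMKO and 185 ± 22.9 in F/F (0.32) and Phka1 at 15.8 ± 1.65 and 13.3 ± 2.29 (0.25). Pfkfb3 had the most negative value in both muscles, at 30.0, 66.5, 30.5, 28.5 and 28.1 FPKM in GC of ChMKO mice (-0.52, 95% interval -1.11 to 0.07), where it overlapped with F/F. In GC the core genes gave 0.02 for Hk2, 0.12 for Pfkm, 0.07 for Aldoa, 0.04 for Pgam2, 0.33 for Eno3, 0.12 for Pkm, 0.03 for Ldha, -0.08 for Ldhb, 0.20 for Pygm, 0.11 for Gys1, 0.12 for Slc16a1 and 0.21 for Slc16a3. In SOL they gave 0.17 for Hk2, 0.08 for Pfkm, -0.12 for Aldoa, -0.10 for Pgam2, 0.11 for Eno3, -0.05 for Pkm, -0.01 for Ldha, 0.00 for Ldhb, 0.11 for Pygm, 0.20 for Gys1, 0.33 for Slc16a1 and 0.04 for Slc16a3. The genotype effect differed between the muscles for 0 members (smallest adjusted p = 0.811, limma with the library number as a random effect), beside 0.00758% of all genes, and 2 members, Ugp2 and Pfkl, had an unadjusted p under 0.05, beside 5.98%.

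The second entry of Hk2, on a scaffold apart from the chromosome sequence, did separate the genotypes. It was 0.528 ± 0.147 FPKM in GC of F/F and 8.58 ± 1.42 in GC of ChMKO mice (2.64, adjusted p = 1.66e-07), and 0.521 ± 0.268 against 9.93 ± 0.867 in SOL (2.86, adjusted p = 7.37e-07). With every entry tested by itself, 0.0391% were called in GC and 0.0298% in SOL. The chromosome entry, at chr6:82725023-82774454 on the minus strand of GRCm38, was 65.5 ± 8.98 against 58.2 ± 5.97 in GC and 81.1 ± 8.58 against 81.9 ± 6.49 in SOL and was called in neither. The sum of the entries was 66.0 ± 9.09 in F/F and 66.8 ± 7.25 in ChMKO GC (0.02), and 81.7 ± 8.80 and 91.8 ± 6.72 in SOL (0.17, adjusted p = 0.535), where the chromosome entry alone gave 0.02. Other genes on that scaffold were below the filter and not tested. Among them Dok1 was 0 FPKM in GC of F/F and 0.317 ± 0.146 in GC of ChMKO mice. In SOL it was 0.013 ± 0.018 against 0.422 ± 0.111. M1ap was lower in GC of ChMKO mice, at 0.006 against 0.150, and not in SOL, at 0.032 against 0.011. How the authors' counting treated the scaffold was not tested.

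The 24 hypoxia and diet libraries fell into 2 sets of 12 that the labels do not name, and this touches the comparisons in that table. The first principal component, computed over 9279 genes without the members, carried 63.0% of the variance and ran from -38.6 to -15.9 in the first set and from 18.3 to 26.8 in the second. The first set held all 8 Norm and Hypo libraries of ChMKO mice and 2 of 4 F/F libraries under each of these conditions. The second held the other F/F libraries and all 8 HFrD libraries. Ppp1r3a, the muscle subunit that targets protein phosphatase to glycogen, showed the split within 1 group: the Norm F/F libraries held 27.7 and 14 FPKM in the first set and 142 and 124 in the second. What sets them apart was not tested.

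Many members moved with the set among the 8 F/F libraries of Norm and Hypo mice. Between the sets 22 of 37 did not overlap, 19 lower and 3 higher in the second, beside 43.4% of all genes. Pgam2 was 1398 to 1623 against 2146 to 2622 FPKM in the first set, Tpi1 651 to 828 against 905 to 1158 and Gys1 62.7 to 69.2 against 84.8 to 118. Ugp2 was higher in the second set, at 312 to 353 against 254 to 273, as were Pfkfb2 and Phkb.

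**Figure D3:**
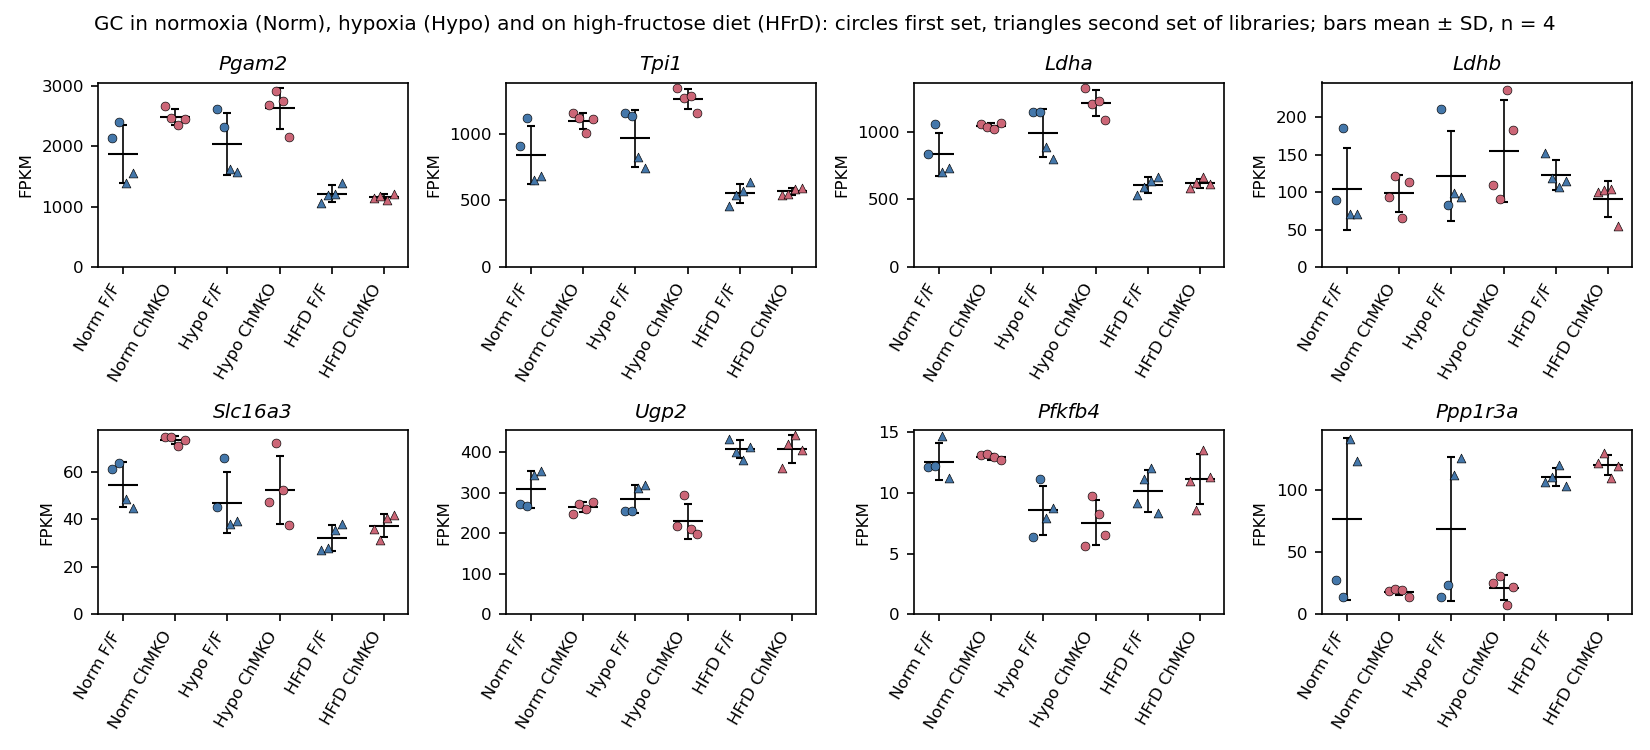
FPKM of Pgam2, Tpi1, Ldha, Ldhb, Slc16a3, Ugp2, Pfkfb4 and Ppp1r3a in GC under Norm, Hypo and HFrD, 1 point for each library with mean and SD (n = 4), blue for F/F and red for ChMKO, circles for the first set of libraries and triangles for the second. Within the F/F groups of Norm and Hypo, circles and triangles separate for Pgam2, Tpi1, Ugp2 and Ppp1r3a, and all HFrD points are triangles.

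Few members were called under hypoxia. In F/F mice 0 of 37 were called by limma, beside 0% of all genes, and 2 had an unadjusted p under 0.05, beside 3.83%, namely Pfkfb4 (-0.52) and Phka1 (-0.36). With the library set as a term 0 members were called, beside 0% of all genes, and 6 had an unadjusted p under 0.05, beside 14.7% (smallest adjusted p = 0.126, Eno1 at 0.50). In ChMKO mice, whose libraries here all lie in the first set, 1 of 37 was called, beside 0.89% of all genes. This was Pfkfb4, a Pfkfb form known as a hypoxia target, at 13.1, 13.2, 12.9 and 12.7 FPKM in Norm and 5.60, 9.77, 8.28 and 6.52 in Hypo. All Hypo values lay below all Norm values (-0.74, SE 0.14, adjusted p = 0.0425). The call was lost without each of 7 of the 8 libraries, with adjusted p of 0.0698 to 0.113, and without the other library 4 members were called, beside 1.2% of all genes. After rescaling of the libraries Pfkfb4 was no longer called (adjusted p = 0.0511) and Eno1 was. In F/F mice Pfkfb4 was 12.1, 12.2, 14.7 and 11.2 and 6.40, 11.2, 7.94 and 8.73, again without overlap but not called (adjusted p = 0.9996). Groups did not overlap for 7 of 37 members in ChMKO and 2 in F/F mice, beside 9.81% and 3.04% of all genes.

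No other member was called under hypoxia. In ChMKO mice Eno1 gave 0.61 (adjusted p = 0.0585) and Phka1 -0.60 (0.0555), and 8 members in all had an unadjusted p under 0.05, beside 15.1% of all genes. The core genes gave -0.09 for Hk2, -0.14 for Pfkm, -0.01 for Aldoa, 0.07 for Pgam2, 0.25 for Eno3, -0.09 for Pkm, 0.21 for Ldha, 0.58 for Ldhb, 0.18 for Pygm, 0.03 for Gys1, 0.02 for Slc16a1 and -0.52 for Slc16a3 in ChMKO mice. In F/F mice they gave -0.15 for Hk2, -0.06 for Pfkm, 0.11 for Aldoa, 0.12 for Pgam2, 0.18 for Eno3, 0.04 for Pkm, 0.26 for Ldha, 0.23 for Ldhb, 0.17 for Pygm, 0.01 for Gys1, 0.05 for Slc16a1 and -0.23 for Slc16a3. Ldhb varied widely between mice, at 89.8, 186, 71.4 and 71.4 FPKM in Norm F/F and 211, 82.5, 99.5 and 93.2 in Hypo F/F, and 93.9, 121, 65.5 and 114 in Norm ChMKO and 109, 90.2, 237 and 183 in Hypo ChMKO mice. The groups overlapped in both genotypes. The slow-twitch markers had a mean log2(FPKM + 1) of 3.60 to 6.07 against 1.62 to 4.25 in ChMKO mice under Hypo and Norm, without a call for any of 5 tested, and their part in Ldhb was not tested.

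Genotype gave no call among the members under these conditions by limma. In Norm 0 of 37 were called, beside 0.00922% of all genes, 30 of 37 were higher in ChMKO, beside 59.5% of all genes, and 15 had an unadjusted p under 0.05, beside 11.1%. All ChMKO libraries there belong to the first set and the F/F libraries to both. Within the first set (4 against 2 libraries) 0 were called, beside 0.00927% of all genes, 3 had an unadjusted p under 0.05, beside 2.75%, and the median of the members was 0.06 in place of 0.23, beside medians over all genes of -0.03 and 0.05. In Hypo 0 were called, beside 0.00941%, and 3 had an unadjusted p under 0.05, beside 5.27%. Within the first set 0 were called there, beside 0.00951%, 0 had an unadjusted p under 0.05, beside 0.818%, and the median of the members was 0.00 in place of 0.22, beside medians over all genes of 0.03 and 0.08. In HFrD, where all libraries belong to the second set, 0 of 36 were called, beside 0.019%, and 6 had an unadjusted p under 0.05, beside 7.36%. The core genes gave 0.05 for Hk2, 0.24 for Pfkm, 0.35 for Aldoa, 0.44 for Pgam2, 0.36 for Eno3, 0.41 for Pkm, 0.35 for Ldha, 0.00 for Ldhb, 0.25 for Pygm, 0.28 for Gys1, 0.24 for Slc16a1 and 0.44 for Slc16a3 in Norm. Within the first set these values were -0.07 for Hk2, 0.05 for Pfkm, 0.20 for Aldoa, 0.13 for Pgam2, 0.15 for Eno3, 0.17 for Pkm, 0.15 for Ldha, -0.42 for Ldhb, 0.17 for Pygm, -0.04 for Gys1, -0.07 for Slc16a1 and 0.23 for Slc16a3, and 3 of the 12 changed sign. In Hypo the core genes gave 0.10 for Hk2, 0.17 for Pfkm, 0.23 for Aldoa, 0.40 for Pgam2, 0.43 for Eno3, 0.28 for Pkm, 0.30 for Ldha, 0.35 for Ldhb, 0.26 for Pygm, 0.30 for Gys1, 0.22 for Slc16a1 and 0.15 for Slc16a3. Within the first set they were -0.15 for Hk2, -0.04 for Pfkm, -0.02 for Aldoa, 0.08 for Pgam2, 0.14 for Eno3, 0.01 for Pkm, 0.08 for Ldha, 0.12 for Ldhb, 0.01 for Pygm, 0.00 for Gys1, -0.07 for Slc16a1 and -0.10 for Slc16a3, and 5 of the 12 changed sign. In HFrD they gave 0.13 for Hk2, 0.10 for Pfkm, 0.04 for Aldoa, -0.06 for Pgam2, 0.07 for Eno3, 0.11 for Pkm, 0.04 for Ldha, -0.47 for Ldhb, 0.13 for Pygm, 0.02 for Gys1, -0.13 for Slc16a1 and 0.22 for Slc16a3.

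The genotype effect was also compared between conditions. Between Hypo and Norm it differed for 0 members, beside 0% of all genes, with 0 members under an unadjusted p of 0.05, beside 1.23%, and within the first set again for 0, beside 0%. Between HFrD and Norm it differed for 0 members, beside 0%, with 3 under an unadjusted p of 0.05, Aldoa, Pgam2 and Pgk1 (smallest adjusted p = 0.451), beside 10.3% of all genes. The library set enters this comparison, since Norm ChMKO lies in the first set, Norm F/F in both and HFrD in the second. These 3 genes were also lower in the second set among Norm and Hypo F/F mice, without overlap, as the sets did not overlap for 43.4% of all genes in either direction.

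The high-fructose diet went with the largest count of calls in this table, but in ChMKO mice diet and library set cannot be told apart, since all 4 Norm libraries lie in the first set and all 4 HFrD libraries in the second. There 25 of 37 members were called, 3 higher and 22 lower on HFrD, beside 64% of all genes, 19.4% higher and 44.6% lower, so that the share called, both directions together, was near that of all genes. By the study's criterion 2 passed, Pgam2 and Gapdh, beside 5.06%. Pgam2 was 2668, 2476, 2350.0 and 2448 FPKM in Norm and 1138, 1185, 1119 and 1209.7 on HFrD, without overlap (-1.09, SE 0.06), as held for 23 of 37 members and 57.2% of all genes. Gapdh fell by 1.04, Tpi1 by 0.95, Pgk1 by 0.90, Gpd1 by 0.82, Eno1 by 0.81 and Ldha by 0.76. The exporter Slc16a3 fell from 73.4 ± 1.70 to 37.4 ± 4.74 (-0.96), and Eno3, Aldoa, Pkm, Gys1, Pygm and Pfkm fell by 0.73, 0.66, 0.65, 0.47, 0.36 and 0.33. Pfkfb2 rose by 0.66, Ugp2 by 0.62 and Phkb by 0.23, while Ldhb (-0.12), Slc16a1 (-0.04) and Hk2 (0.16) were not called.

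Of these 25 members, 19 also separated the library sets in Norm and Hypo F/F mice, in the same direction, as did 57.8% of all 6796 genes called for the diet and tested there. Rescaling moved the median of all genes by 0.15 and the share of higher calls from 30.3 to 51.9%, with 4 members then higher and 17 lower, beside 27.9% and 25.9% of all genes. Hk2 was gained, Gpd2, Gyg, Pfkl, Pfkm and Phka1 were lost, and Gyg and Phka1 changed sign. Of 25 further pathway genes tested 5 were higher and 12 lower, beside the same 19.4% and 44.6% of all genes. Among them Ppp1r3a, which also split with the library set, went from 18.3 ± 2.94 to 121 ± 8.0 FPKM. Markers of red blood cells (5 of 5, 2.73 to 3.95 against 4.07 to 5.04 in Norm), macrophages (5 of 5), endothelium (5 of 5) and fibroblasts (4 of 5, 3.83 to 4.10 against 5.0 to 5.89) were lower on HFrD, and their part in the result was not tested.

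In F/F mice the diet could also be compared within the second set, where any difference in age cannot be told apart from it either. Across all libraries 0 of 37 members were called by limma, beside 0% of all genes, 17 had an unadjusted p under 0.05, beside 23.6%, and 13 did not overlap, beside 16.2%. The core genes gave 0.07 for Hk2, -0.18 for Pfkm, -0.34 for Aldoa, -0.60 for Pgam2, -0.43 for Eno3, -0.34 for Pkm, -0.45 for Ldha, 0.34 for Ldhb, -0.24 for Pygm, -0.22 for Gys1, 0.34 for Slc16a1 and -0.75 for Slc16a3. Within the second set (4 HFrD against 2 Norm libraries) 1 of 36 was called, beside 0.934% of all genes, and 15 had an unadjusted p under 0.05, beside 18.9%. This was Ldhb, at 71.4 and 71.4 FPKM in Norm and 153, 118, 107 and 115 on HFrD (0.77, SE 0.13, adjusted p = 0.0444). Slc16a1 was 10.3 and 12.4 against 19.6, 23.8, 15.5 and 15.7 (0.66, SE 0.17, adjusted p = 0.103), and Slc16a3 48.5 and 44.9 against 27.0, 27.8, 35.7 and 38.0 (-0.54, SE 0.14, adjusted p = 0.106). None of these genes overlapped between the groups of that set, as held for 19 of 36 members and 30% of all genes. The other core genes gave 0.19 for Hk2, 0.01 for Pfkm, -0.19 for Aldoa, -0.29 for Pgam2, -0.22 for Eno3, -0.10 for Pkm, -0.25 for Ldha, -0.17 for Pygm and 0.10 for Gys1 there, so that Pfkm and Gys1 changed sign against the fit over all libraries. Myh7, the slow myosin heavy chain, was 5.14 and 3.16 FPKM in the same Norm libraries and 16.1 to 24.6 on HFrD, and its part in the Ldhb difference was not tested.

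As a share of the pair, Ldhb was 17.1% ± 3.67 on HFrD and 10.7% ± 2.85 in Norm F/F mice, and 12.7% ± 2.99 and 8.56% ± 1.95 in ChMKO mice (SD, n = 4). Slc16a1 was 36.9% ± 8.48 and 21.1% ± 3.52 in F/F mice and 31.1% ± 4.94 and 18.9% ± 0.702 in ChMKO mice. The ranges of diet and Norm did not overlap for Slc16a1 and overlapped for Ldhb, in both genotypes.

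Raising ChREBP in adult GC by AAV moved no member past the threshold. Of 37 tested 0 were called by limma, beside 0.00904% of all genes, and 0 had an unadjusted p under 0.05, beside 2.91%. Since libraries of the same number deviated together, the number was also taken as a block, and 0 members were then called and 3 had an unadjusted p under 0.05 (Fbp2, Pfkfb1 and Pfkfb3, smallest adjusted p = 0.847), beside 5.85% of all genes. Fbp2 was 38.9, 32.3, 30.9, 25.6 and 24.2 FPKM in AAV-CON and 32.6, 29.5, 26.9, 25.4 and 22.4 in AAV-MLXIPL in the order of the numbers, lower in 5 of 5 pairs (-0.14), and the groups overlapped. The fold changes ran from -0.21 for Ldhb to 0.23 for Pfkfb3. Ldha was 1669, 1513, 1531, 1709.8 and 1554 FPKM in AAV-CON and 1578, 1591, 1468, 1660.2 and 1618 in AAV-MLXIPL, with a 95% interval of -0.13 to 0.11 on the log2 scale. The interval of Ldhb was wide, at -1.37 to 0.95. Hk2 was 73.8, 67.4, 67.1, 41.0 and 41.8 in AAV-CON and 78.4, 66.7, 70.1, 42.5 and 41.6 in AAV-MLXIPL, so that the libraries numbered 7 and 8 were low in both groups. The core genes gave 0.03 for Hk2, -0.03 for Pfkm, 0.04 for Aldoa, -0.01 for Pgam2, -0.04 for Eno3, 0.03 for Pkm, -0.01 for Ldha, -0.21 for Ldhb, -0.01 for Pygm, -0.04 for Gys1, -0.17 for Slc16a1 and 0.01 for Slc16a3.

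In C2C12 cells, ChREBP overexpression went with small differences beyond the narrow spread between libraries. Of 35 members tested 16 were called, 7 higher and 9 lower, beside 30.5% of all genes, 16.3% higher and 14.1% lower, and 0 passed the study's criterion. Slc16a1 changed most, at 87.9, 85.8, 89.8 and 90.9 FPKM in the controls and 67.2, 67.4, 61.7 and 67.2 with overexpression (-0.42, SE 0.03, adjusted p = 6.04e-06). Eno1, the enolase of most tissues, was 1233, 1257, 1109.8 and 1138 against 941, 929, 937 and 932 (-0.34). Eno3, the muscle enolase, went the other way, at 124, 125, 122 and 120.2 against 154, 153, 152 and 149 (0.30). None of these 3 genes overlapped between the groups, as held for 18 of 35 members and 31.3% of all genes.

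The other calls included forms typical of muscle and forms of other tissues. Pfkl fell from 115 ± 4.10 to 92.3 ± 0.897 FPKM (-0.31), Gpi1 by 0.25, Hk1 by 0.14, Pgk1 by 0.13, Ldha by 0.12, Aldoa by 0.11 and Pgam1 by 0.11. Bpgm rose from 13.5 ± 1.52 to 17.9 ± 0.952 (0.39), Pgam2 from 6.06 ± 0.615 to 8.09 ± 1.15 (0.36), Gpd2 by 0.25, Pfkfb3 by 0.21, Pfkm by 0.11 and Ugp2 by 0.11. The Pfkm call was lost without a filter and without each of 6 of the 8 libraries, and the Aldoa call without control 2. Core genes that were not called gave -0.06 for Hk2, -0.03 for Pkm, -0.09 for Ldhb, 0.04 for Pygm, 0.00 for Gys1 and 0.09 for Slc16a3. Fbp2, Gpd1, Pygl and Phkg1 were below the filter, and Pklr has no entry in the table.

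The isoforms of C2C12 cells differed from those of muscle, though the tables were normalized separately and no test was made between them. In the controls Hk1 was 75.0% ± 1.15 of the hexokinase level, Pfkl 51.2% ± 0.638 of phosphofructokinase, Pgam1 98.7% ± 0.134 of the mutase, Eno1 89.0% ± 0.486 of enolase and Pygb 87.4% ± 1.79 of phosphorylase. With overexpression Pfkl was 45.2% ± 0.735 and Eno1 84.2% ± 0.117. Slow-twitch markers (4 of 4 tested, 3.91 to 3.95 against 3.59 to 3.64) and myoblast markers (3 of 5) were higher with overexpression and fibroblast markers lower (5 of 5, 6.15 to 6.18 against 6.55 to 6.60), while of 5 fast-twitch markers tested 3 were higher and 2 lower (4.39 to 4.47 against 4.35 to 4.44), and their part in the members' differences was not tested. Of the further pathway genes 19 were tested, 3 were higher, among them Pgm5 and Ppp1r3b, and 1 was lower (Emb, a partner of MCT1, at -0.33), beside the same 16.3% and 14.1% of all genes.

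**Figure D4:**
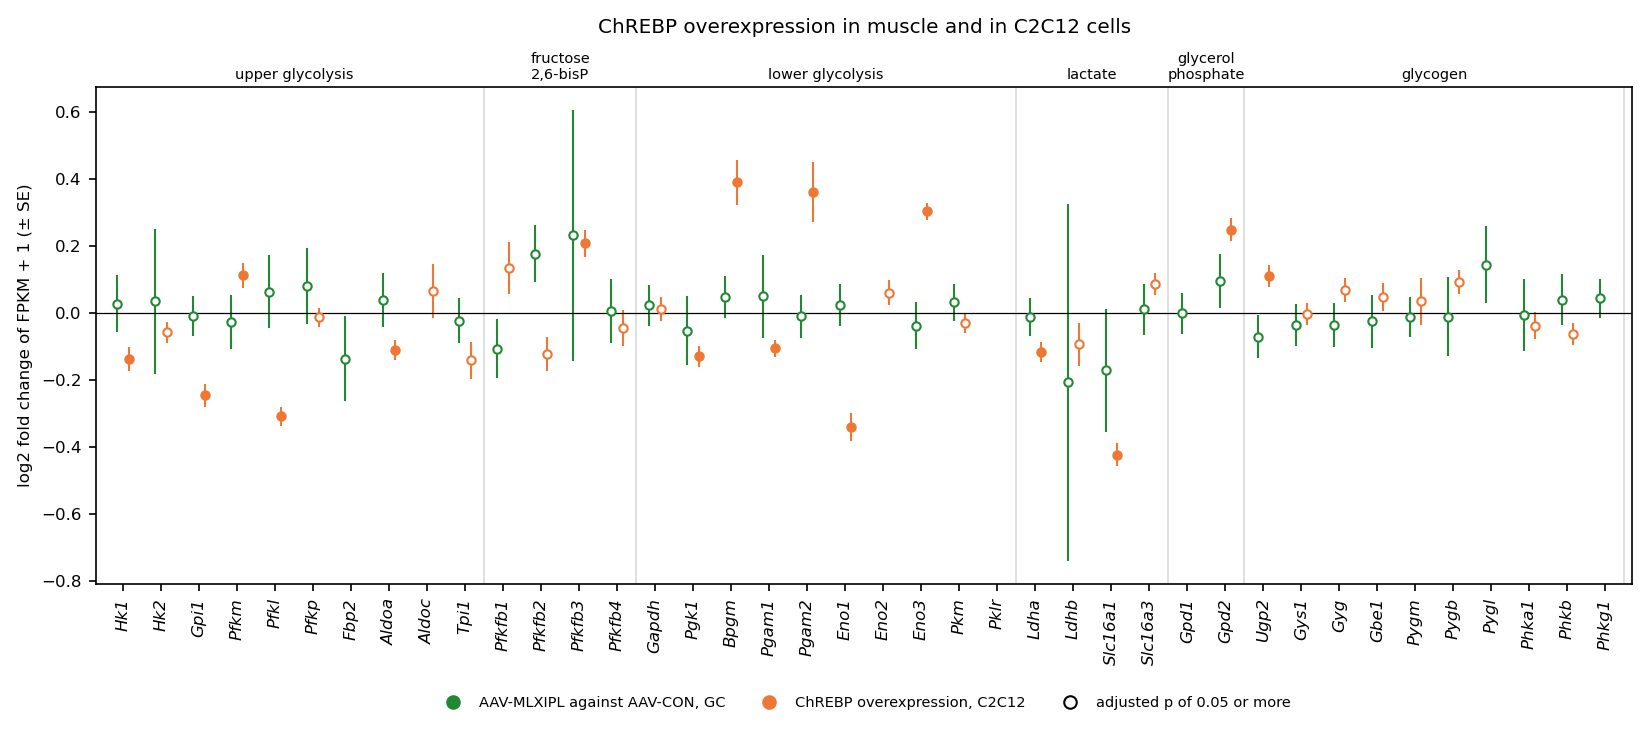
Log2 fold change (difference of mean log2(FPKM + 1), bars SE) of the members for AAV-MLXIPL against AAV-CON in GC (green, n = 5) and for ChREBP overexpression against vector control in C2C12 cells (orange, n = 4). The 16 C2C12 members called lie between -0.42 and 0.39, and no AAV member was called.

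Across GC libraries, Ldhb was compared with the slow myosin gene Myh7, with 9 relations in the family. In the AAV table Pearson's r of the log2(FPKM + 1) levels was 0.90 and Spearman's rho 0.93 (n = 10, permutation tests, adjusted p = 0.00081 and 0.00189), and r was 0.87 without the 2 libraries farthest from the median of Myh7. These permutations take the 10 libraries as exchangeable, although AAV libraries of the same number deviated together, and the p-values do not take account of that. In the hypoxia and diet table r was 0.65 and rho 0.67 (n = 24, permutation tests, adjusted p = 0.0027 and 0.00229), and r was 0.65 without 2 libraries. Within the first library set r was 0.82 and rho 0.79, and within the second 0.76 and 0.41. Within Norm, Hypo and HFrD r was 0.67, 0.82 and 0.77 and rho 0.74, 0.81 and 0.33, so that the relation was weaker by rank in the second set and in HFrD. In chow GC r was 0.62 and rho 0.44 (n = 10, permutation tests, adjusted p = 0.169 and 0.307), and r was 0.09 without 2 libraries, so that the value there rests on those. Ldha and Slc16a1 passed the threshold in none of the 3 tables. Myh7 ran from 0.042 to 68.3 FPKM over these GC libraries, and the share of slow fibers in each sample was not measured here.

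**Figure D5:**
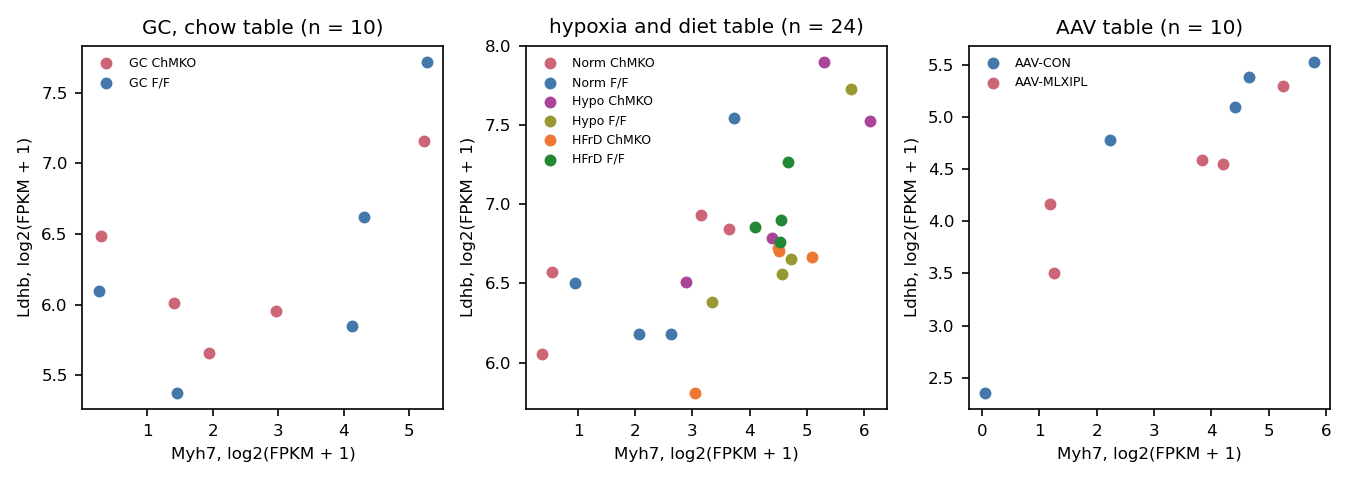
Ldhb against Myh7, both as log2(FPKM + 1), in the GC libraries of the chow (n = 10), hypoxia and diet (n = 24) and AAV (n = 10) tables, 1 point for each library. Ldhb rises with Myh7 in the latter 2 tables, with r of 0.65 and 0.90.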

How the data were processed

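RNA-seq libraries were aligned and quantified by the authors, who used fastp 0.18.0, Bowtie2 2.2.8, HISAT2 2.1.0, StringTie 1.3.1 and RSEM according to the submitters' processing notes. The authors deposited FPKM in 4 tables, normalized separately; for the AAV and C2C12 tables the unit is not labelled and was taken as FPKM from the values. Positions in the chow table follow GRCm38. Read totals per library were not used here, so the tests rest on the spread between libraries alone. Fold change and p-value columns of the AAV table hold the authors' own comparison and were not used.

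In the chow table entries of 1 symbol were summed, and in the other tables the entry with the highest mean was kept. Each pair of groups was fitted with limma 3.58.1 (R 4.3.3; lmFit, eBayes with trend, two-sided) on log2(FPKM + 1), for genes averaging 0.5 FPKM or more, with Benjamini-Hochberg adjustment over all genes. The study's test needs counts, so limma replaced it. The 12 core genes (Hk2, Pfkm, Aldoa, Pgam2, Eno3, Pkm, Ldha, Ldhb, Pygm, Gys1, Slc16a1, Slc16a3), the 8 called members with the largest changes and those past the study's criterion were to be named in each comparison. Members and lists were chosen with earlier results of these data known. The alternatives were the pseudocount, the filter, rescaling, leaving out libraries and the replicate number as a block; library sets, single entries and a limit on Myh7 were added after the data were seen. GC and SOL libraries share numbers, which the sources used here do not tie to a mouse; the SOL library numbered 69 was placed by its description, since its title gives another number. AAV libraries of the same number deviated together (r of 0.22 to 0.52 for each of 5 pairs). No 2 libraries held identical values. Correlations used 100000 permutations (Python 3.11.15, scipy 1.17.1).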

Additional observations from a re-analysis of the deposited data

Results flagged for a closer look

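Of 168 groups of 4 or 5 libraries tested over the 12 core genes, 13 had a library set apart from the rest by Dixon's criterion, where chance alone gives about 8.4 at 1 in 20. Ldhb stood out in 3 GC libraries: 186 FPKM in 1 Norm F/F library (others 71.4 to 89.8), 211 in 1 Hypo F/F library (82.5 to 99.5) and, at the low end, 55.1 in 1 HFrD ChMKO library (100.4 to 105). Myh7 in these libraries was 12.3, 53.7 and 7.23 FPKM, beside 0.930 to 5.14, 9.13 to 25.5 and 21.5 to 33.2 in the other libraries of the same groups.

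On chow, Pgam2 was 2424 FPKM in GC of ChMKO number 61 (others 2041 to 2150.1), Pygm 98.1 in SOL of F/F number 57 (46.2 to 58.7) and Gys1 116 in SOL of F/F number 71 (209 to 223). Pkm was 511 in 1 Hypo ChMKO library (665 to 668), Aldoa 2942 in the HFrD ChMKO library with the low Ldhb (2552 to 2578) and Pfkm 1070.2 in 1 HFrD F/F library (972 to 976). In C2C12 cells Aldoa was 944 in control 2 (902 to 908), Pfkm 49.0 and Ldha 629 in overexpression library 1 (46.8 to 47.0 and 649 to 652) and Slc16a1 61.7 in overexpression library 3 (67.2 to 67.4).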

How the results depend on the processing

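Of 13 group comparisons, the count of called members left 1.5 times its reported value only under hypoxia in ChMKO mice and for the diet in F/F mice. This leaves single entries aside, where the scaffold entry of Hk2 was called for genotype on chow in GC and in SOL. For hypoxia in ChMKO mice (1 as reported) it was 2 with a pseudocount of 0.1, 0 without a filter, 3 with a minimum mean of 5 FPKM, and 0 to 4 with a library left out, beside 1.07, 0.0359, 1.51 and 0.0933 to 1.2% of all genes. For the diet in F/F mice (0 as reported) it was 1 within the second set of libraries, an alternative chosen after seeing the data, and fewer libraries entered that fit. Leaving out a library gave 32 to 35 for SOL against GC in F/F, 34 to 36 in ChMKO, 23 to 27 for the diet in ChMKO mice and 14 to 16 in C2C12 cells, beside 44 to 51.4, 53.3 to 57, 58.1 to 61.8 and 24.7 to 28.6% of all genes. With the replicate number as a block, 32, 35, 0 and 16 members were called for SOL against GC in F/F and in ChMKO mice, for AAV and for C2C12, beside 48.8, 55.6, 0.00904 and 28% of all genes, and the interaction of genotype by muscle gave 0 without the block. GC and SOL libraries share only a number (r of same-numbered libraries -0.05 to 0.36 in F/F and 0.02 to 0.06 in ChMKO mice), as do those of C2C12 cells (-0.08 to 0.19), and in none of these did every library correlate best with its own number. Nor did every AAV library, since AAV-MLXIPL number 3 correlated best with AAV-CON number 4 (r of 0.22 with its own number). Pseudocounts, filters, rescaling, blocks and left-out libraries were compared for the core genes and the leading members called in a comparison. Of these values 1110 kept their direction and their side of the threshold, 27 lost the call and 0 reversed. Single entries were not counted. Between the muscles the chromosome entries of Eno3 and Pygm were called in neither genotype, and that of Pygm gave 0.05 in ChMKO mice. The scaffold entry of Hk2 gave -0.02 in F/F mice and was not called. Gyg and Phka1, called for the diet in ChMKO mice and not among the leading members there, changed sign after rescaling. Fits within a library set were not counted either, and there core genes that were not called did change sign: Hk2, Gys1 and Slc16a1 for genotype in Norm, Hk2, Pfkm, Aldoa, Slc16a1 and Slc16a3 for genotype in Hypo, and Pfkm and Gys1 for the diet in F/F mice. The 27 calls lost concern Hk2 between the muscles in F/F mice, Pfkfb4 under hypoxia in ChMKO mice, Pfkm for the diet in ChMKO mice and Pfkm and Aldoa in C2C12 cells, and the cause was not tested. The tables give no depth, so a difference that is not called was not detectable at this spread, which does not show that it is absent.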
